A study of Mus musculus with 36 samples.

Results

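The small proline-rich genes Sprr1a, Sprr1b, Sprr2d and Sprr2h were followed through 2 consecutive skin injuries in the progeny of Lrig1+ and of Lgr5+ hair follicle (HF) cells. The members were given by name and are 4 of the 12 Sprr genes found in either count table, and 4 of the 18865 genes found in both tables. They were picked with results from these counts already known, so their levels are given as a description. Every p-value comes from a fit across all genes tested and is not independent support for the choice.

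Mini-bulk RNA-seq measured 36 libraries of 150 sorted tdTomato+ cells each, with 3 libraries at each of 6 time points in each population. Lrig1 GL cells came from Lrig1-EGFP-ires-CreERT2 mice and Lgr5 GL cells from Lgr5-EGFP-ires-CreERT2 mice, both crossed with Rosa26-fl/STOP/fl-tdTomato, and every mouse, 0w included, received a single topical dose of 4-hydroxytamoxifen on the tail in its second month of life. The time points were 0w (labelled, before injury), 1w, 2w, 4w and 8w after a first full-thickness tail wound (1w pw1 to 8w pw1) and 1w after a second, overlapping wound made at 8w (1w pw2). Each knock-in CreERT2 marks whichever cells express that gene at labelling together with their descendants, and the sorted zone held both the wound bed and distal HFs, so a library mixes cells of both places.

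SPRR proteins are short, proline-rich proteins that transglutaminases cross-link into the cornified envelope, the protein shell that replaces the plasma membrane of dying keratinocytes. They act as bridges between larger envelope proteins such as loricrin and involucrin, and their genes lie together in the epidermal differentiation complex. SPRR1 genes are known as markers of squamous and stressed epithelia, Sprr1a also as a gene of regenerating neurons, and several Sprr2 genes are known to come on in injured or inflamed skin and gut.

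On GRCm38, with GENCODE release M21, the members lie on chromosome 3 in the order Sprr2d (92339140 to 92340873, plus strand), Sprr2h (92385685 to 92387324, plus strand), Sprr1b (92436809 to 92438789, minus strand) and Sprr1a (92483952 to 92485895, minus strand), all protein-coding. The counts were taken over exons, UTRs included. Of the 50-base stretches of exon in Sprr2d, 4.27% also occur in Sprr2i or Sprr2e, and none of those in Sprr2h, Sprr1b or Sprr1a occurs in another gene, so reads of these genes can be told apart, with a small exception in Sprr2d.

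The 250 bases before the RefSeq start (GRCm38.p6) are shown for each member because all 4 hold the same pair of motifs, and they are printed from 5′ to 3′ on the gene's own strand. Capitals mark matches to the AP-1 site TGANTCA, to the antioxidant response element TGACNNNGC and to the TATA box TATAAA, searched on both strands.
Sprr1a (chr3:92485882-92486131, minus strand): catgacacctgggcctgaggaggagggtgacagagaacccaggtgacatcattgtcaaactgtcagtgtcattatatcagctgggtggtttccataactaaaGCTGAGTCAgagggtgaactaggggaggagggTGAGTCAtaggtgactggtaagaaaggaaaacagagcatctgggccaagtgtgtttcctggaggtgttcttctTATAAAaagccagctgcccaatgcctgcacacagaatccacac
Sprr1b (chr3:92438780-92439029, minus strand): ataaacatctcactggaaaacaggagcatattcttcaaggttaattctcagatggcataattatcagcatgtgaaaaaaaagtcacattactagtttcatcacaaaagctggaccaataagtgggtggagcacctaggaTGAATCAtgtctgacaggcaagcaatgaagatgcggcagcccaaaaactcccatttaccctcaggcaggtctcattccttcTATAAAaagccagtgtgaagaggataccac
Sprr2d (chr3:92338890-92339139, plus strand): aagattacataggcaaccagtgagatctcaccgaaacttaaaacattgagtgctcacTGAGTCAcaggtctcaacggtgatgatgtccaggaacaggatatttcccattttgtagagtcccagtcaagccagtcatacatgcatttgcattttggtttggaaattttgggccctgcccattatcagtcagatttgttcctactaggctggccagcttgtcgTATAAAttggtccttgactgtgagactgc
Sprr2h (chr3:92385435-92385684, plus strand): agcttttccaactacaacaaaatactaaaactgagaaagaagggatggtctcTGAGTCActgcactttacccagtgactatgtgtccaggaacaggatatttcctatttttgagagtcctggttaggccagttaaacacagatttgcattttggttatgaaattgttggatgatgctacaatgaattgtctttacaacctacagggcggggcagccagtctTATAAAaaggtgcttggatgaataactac

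Each member held an AP-1 match, which 6.75% of 32841 promoter windows of the same length held, and a TATA box match, held by 12.4% of them. The AP-1 match lay 193 to 187 bases before the start in Sprr2d, 198 to 192 bases before it in Sprr2h and 111 to 105 bases before it in Sprr1b. Sprr1a held 2 AP-1 matches, from 146 to 140 and from 116 to 110 bases before the start, and the first of them overlapped a match to the antioxidant response element on the other strand, a motif found in 10.2% of all windows. Of 14 Sprr promoters, 9 held an AP-1 match and 10 a TATA box, and none of the matches shows that a factor binds there. The ETS core GGAAG, matched in 64.1% of all windows and in 9 of the 14 Sprr promoters, was not matched in the 4 members' windows. Sprr2d and Sprr2h were 65% identical over these windows and Sprr1a and Sprr1b 52.2%. The promoters of Sprr2a1 and Sprr2a3, which recur below, held neither an AP-1 nor a TATA box match.

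**Figure D1:**
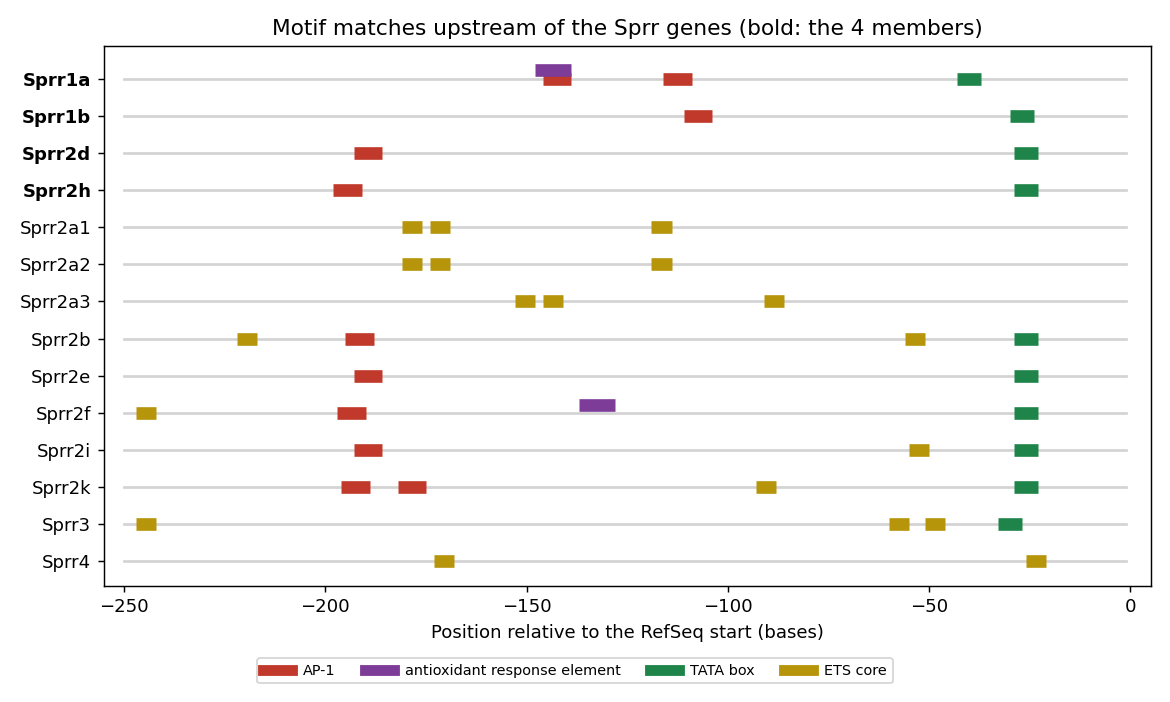
Motif matches in the 250 bases before the RefSeq start of 14 Sprr genes, with the position in bases from the start on the x axis and 1 gene per line, the 4 members on top in bold. Coloured blocks mark AP-1, antioxidant response element, TATA box and ETS core matches on either strand. The 4 members each show an AP-1 and a TATA box block and no ETS core block.

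Lrig1 GL libraries held 765252 to 3365666 counts and Lgr5 GL libraries 1297798 to 6960537 counts. In the latter the gene Gm12415 alone took up to 52.1% of the counts. Levels are given in CPM, counts scaled to library size with TMM factors. The detection floor was set at 3 counts, worth between 1.01 and 3.39 CPM in a Lrig1 GL library and between 0.389 and 2.92 CPM in a Lgr5 GL library. Intervals on pooled counts and floors treat every read as independent. They leave out the differences between libraries and, since the reads carried no molecular identifiers, PCR copies. Mitochondrial genes took 3.15 to 14.4% of the Lrig1 GL counts and 1.19 to 3.64% of the Lgr5 GL counts. The Lrig1 GL libraries of 8w pw1 had the highest shares, 14.4, 10.9 and 12.9%, against 5.38, 3.15 and 5.22% at 0w. What this shift means for the 8w pw1 levels below was not tested. The replicates were counted as mice by the study, although the labels tie no library to a mouse. Which of 21 libraries belongs to which labelled replicate is not known within its time point, and these are called replicates a, b and c.

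Sprr1a was the most abundant member before injury and held over 100 CPM in every Lrig1 GL library. At 0w its level in Lrig1 GL cells was 694, 633 and 437 CPM. At 1w pw1 it was 1002, 149 and 318 CPM, at 2w pw1 1039.5, 423 and 278 CPM, and at 4w pw1 1425, 1174 and 111 CPM, so the libraries of these time points lay on both sides of the 0w range. At 8w pw1 the 3 libraries held 233, 254 and 116 CPM, all below the 3 libraries of 0w, which 12.8% of all genes tested also showed at that time point. At 1w pw2 it was 231, 443 and 285 CPM, which overlapped the 0w values only at the edge. The log2 fold change against 0w was -0.26 (SE 0.73) at 1w pw1, -1.55 (SE 0.74) at 8w pw1 and -0.88 (SE 0.73) at 1w pw2, with adjusted p of 0.941, 0.223 and 0.541 by edgeR's quasi-likelihood test with Benjamini-Hochberg adjustment over all 14306 genes tested.

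Sprr1b, the close relative of Sprr1a, was low and uneven before injury and high 1w after each injury in Lrig1 GL cells. At 0w it stood at 27.7, 1.62 and 149.9 CPM, and at 1w pw1 at 911, 204 and 285 CPM, so that no library of 1w pw1 overlapped those of 0w. At 2w pw1 it was 293, 141 and 140.2 CPM and at 4w pw1 471, 177 and 19.9 CPM, and both ranges overlapped that of 0w, at 2w pw1 only through 0w replicate 3. Healed skin at 8w pw1 held 17.5, 33.0 and 25.2 CPM, a narrow range. At 1w pw2 the values were 572, 314 and 190.1 CPM, again all above 0w. The log2 fold change against 0w was 2.98 (SE 1.08) at 1w pw1 and 2.60 (SE 1.07) at 1w pw2. Neither passed the adjusted threshold (edgeR quasi-likelihood test, adjusted p = 0.309 and 0.205).

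Sprr2h ran from no count to over 100 CPM in Lrig1 GL cells. It stood at 0, 0 and 3.20 CPM at 0w, at 164, 4.52 and 129 CPM at 1w pw1 and at 17.9, 5.67 and 28.7 CPM at 2w pw1. At 4w pw1 it stood at 5.48, 3.97 and 0.510 CPM, with replicates a and b still above the 0w range. The pooled ratio to 0w was then 3.88 (95% exact interval 1.38 to 13.5). By 8w pw1 it held 0, 0 and 1.61 CPM, at the floor or below. At 1w pw2 all 3 libraries stood above the 0w range, with 57.1, 46.0 and 29.6 CPM. Sprr2h was the 1 member whose level changed across the time course by the test over all genes (edgeR quasi-likelihood F-test of 5 coefficients, adjusted p = 0.0276), where 1.63% of all genes were called. Pooled over the 3 libraries, 457 counts at 1w pw1 against 5 at 0w gave 133 times the 0w level (95% exact interval 56.6 to 412), and 289 counts at 1w pw2 gave 54.7 times (23.2 to 170). Both intervals leave out the spread between libraries.

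The call for Sprr2h was close to the threshold. The adjusted p was 0.0710 without 1w pw1 replicate 1, 0.0546 without 1w pw1 replicate 3, 0.0538 without 4w pw1 replicate b, 0.0746 and 0.0622 without 8w pw1 replicates a and b, and 0.0579 and 0.0551 without 1w pw2 replicates 2 and 3, all by edgeR's quasi-likelihood test. With the replicate number as a block it was 0.0568. Against 0w alone Sprr2h did not pass (log2 fold change 6.63, SE 1.48, adjusted p = 0.0798 at 1w pw1, and 5.47, SE 1.43, adjusted p = 0.0671 at 1w pw2). It did once 0w replicate 3, which held all 5 counts of that time point, was left out (adjusted p = 0.0434 and 0.0496). The fitted log2 fold changes were then 10.60 and 9.44, which depend on the prior count because no count at 0w is left. It also passed at 1w pw1 once replicate 2 of 1w pw1 was left out (adjusted p = 0.0358).

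Sprr2d was read in 7 of 18 Lrig1 GL libraries. It had no counts at 0w, where the floor of 3 counts was worth 0.502 CPM over the 3 libraries, and none at 8w pw1. Single libraries held it during the first healing, 12.3 CPM in 1 library of 1w pw1, 44.7 and 6.93 CPM in 2 libraries of 2w pw1 and 90.6 CPM in 1 library of 4w pw1, with the others at 0. Only after the second injury was it found in all 3 libraries of a time point, at 36.8, 19.8 and 4.604 CPM. The pooled level at 1w pw2 was 43.5-fold above the floor of 0w, against 6.31-fold at 1w pw1, 32.6-fold at 2w pw1 and 43.4-fold at 4w pw1, where the floor over the 3 libraries of 0w is 3 counts. These folds leave out the counting error of the pooled levels. Sprr2d did not pass the test across the time course in Lrig1 GL cells (edgeR quasi-likelihood test, adjusted p = 0.260).

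**Figure D2:**
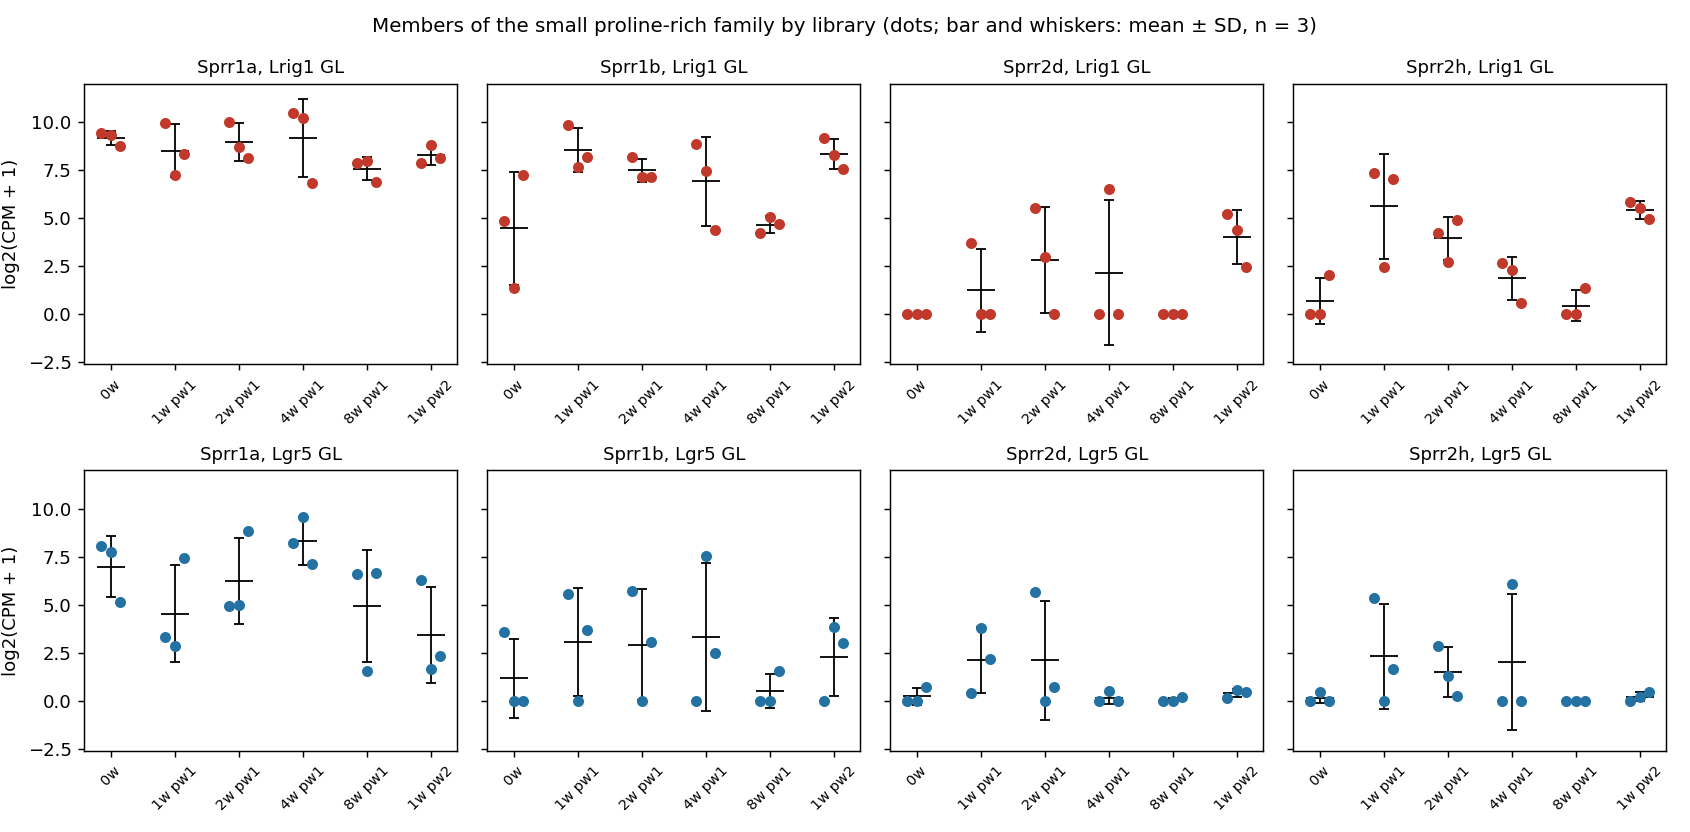
Level of each member as log2(CPM + 1) in every library, with the 6 time points on the x axis, Lrig1 GL in the upper and Lgr5 GL in the lower row. Dots are libraries, and bars with whiskers give the mean ± SD of these log values (n = 3). In Lrig1 GL cells Sprr1b and Sprr2h stand above 0w 1w after each injury, for Sprr2h only narrowly in 1w pw1 replicate 2. In Lgr5 GL cells the dots of all 4 genes overlap with 0w at every time point.

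Counted by time point, Sprr1b and Sprr2h lay above 0w in all 3 Lrig1 GL libraries at 1w pw1, beside 7.51% of all genes tested. Sprr2h did so at 2w pw1 (6.1% of all genes) and no member did at 4w pw1 (5.5%). At 1w pw2 Sprr1b, Sprr2d and Sprr2h did (13.9%). For Sprr2h at 1w pw1 the order rested on values near the floor. They were 4 counts (4.52 CPM) in 1w pw1 replicate 2 and 5 counts (3.20 CPM) in 0w replicate 3. Sprr2d, without a count at 0w and 8w pw1, passed the low-count filter only through the other time points. Against 0w, 0 of 20 pairs of member and time point passed the edgeR quasi-likelihood test, which asked for an adjusted p below 0.05 and a change of more than 1 on the log2 scale. The share of all genes that passed was 0.217% at 1w pw1, 0% at 2w pw1, 0.0419% at 4w pw1, 2.82% at 8w pw1 and 1.23% at 1w pw2. At an unadjusted p under 0.05 there were 8 of the 20 pairs, DESeq2 called 7 and edgeR's likelihood ratio test 2. In these bulk libraries a lower share of cells expressing a gene and less RNA per cell cannot be told apart, and 3 libraries against 3 could not give a two-sided exact permutation p below 0.1.

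No member was above 0w in all 3 libraries of Lgr5 GL cells at 1w pw1, 2w pw1 or 1w pw2. Of all 18025 genes tested, 9.98, 7.44 and 6.95% were. Sprr1a was again the most abundant, with 263, 217 and 34.8 CPM at 0w, 9.13, 6.23 and 174 CPM at 1w pw1 and 29.6, 30.7 and 459 CPM at 2w pw1. It held 301, 768 and 138 CPM at 4w pw1, 96.7, 1.95 and 100.4 CPM at 8w pw1 and 77.8, 2.17 and 4.14 CPM at 1w pw2. Libraries of the same time point differed by more than 10 times at 4 of the 6 time points. Its log2 fold change against 0w was -1.42 (SE 1.44) at 1w pw1 and -2.58 (SE 1.497) at 1w pw2 (edgeR quasi-likelihood test, adjusted p = 0.627 and 0.862).

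The other members were near the floor in most Lgr5 GL libraries and high in a few. Sprr1b was read in 10 of 18 libraries, at 10.9, 0 and 0 CPM at 0w, 46.0, 0 and 11.9 CPM at 1w pw1, 52.5, 0 and 7.40 CPM at 2w pw1, 0, 0 and 1.96 CPM at 8w pw1 and 0, 13.7 and 7.15 CPM at 1w pw2. Sprr2h reached 39.8 CPM in 1 library of 1w pw1 and 6.35 CPM in 1 of 2w pw1, and Sprr2d 13.02 CPM in 1 library of 1w pw1 and 50.2 CPM in 1 of 2w pw1. At 4w pw1 replicate b alone held 187.7 CPM of Sprr1b and 67.9 CPM of Sprr2h, against at most 4.71 and 0 CPM in replicates a and c. The 8 suprabasal markers summed to 3257 CPM in this library and to 434 and 847 CPM in replicates a and c, and the part that suprabasal cells had in these values was not tested. After the second injury Sprr2h and Sprr2d had 2 and 5 counts over the 3 libraries.

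None of the 4 genes passed the test across the time course in Lgr5 GL cells, where 1.13% of all genes did (edgeR quasi-likelihood test, adjusted p = 0.0808 for Sprr2d, 0.122 for Sprr2h, 0.447 for Sprr1b and 0.488 for Sprr1a). Sprr2d and Sprr2h had an unadjusted p under 0.05, DESeq2 called 1 of the 4 and the likelihood ratio test 2, and without 2w pw1 replicate b, which held no Sprr2d, the adjusted p of Sprr2d was 0.0414. Over all tests and settings tried, 24 to 1975 genes were called across this time course. Against 0w, 0 of 20 pairs were called. There were 4 at an unadjusted p under 0.05, 1 by DESeq2 and 0 by the likelihood ratio test. All genes were called at shares of 1.29% at 1w pw1, 0% at 2w pw1, 0.155% at 4w pw1, 0% at 8w pw1 and 0% at 1w pw2.

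The design asks how the second injury compares with the first. In Lrig1 GL cells Sprr1b had a mean of 359 ± 195 CPM (SD, n = 3) at 1w pw2 and of 467 ± 387 CPM at 1w pw1, a log2 difference of -0.38 (SE 1.00). Sprr2h had 44.2 ± 13.8 and 99.3 ± 83.9 CPM, a log2 difference of -1.17 (SE 1.11). Sprr2d had 20.4 ± 16.1 and 4.11 ± 7.12 CPM, or 138 counts in 3 libraries against 13 in 1 library, a log2 difference of 2.34 (SE 2.25). That of Sprr2d stayed above 0 with each library left out (1.57 to 8.33). None of these differences passed the edgeR quasi-likelihood test (adjusted p between 0.805 and 0.944), which called 0% of all genes at this comparison, and the intervals are wide enough to hold several-fold differences either way.

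Against healed skin at 8w pw1, all 3 libraries of 1w pw2 were above all 3 of 8w pw1 for Sprr1b, Sprr2d and Sprr2h, as was so for 9.02% of all genes. Sprr2d passed the low-count filter only through time points other than 0w and 8w pw1. Sprr1b was 359 against 25.2 ± 7.75 CPM, a log2 difference of 3.84 (SE 1.13, edgeR quasi-likelihood test, adjusted p = 0.661), and Sprr1a 320 ± 110 against 201 ± 74.2 CPM. Sprr2h had 289 counts against 3 and Sprr2d 138 against 0. In this comparison 0.00699% of all genes were called. Over both comparisons with 1w pw2, 0 of 8 Lrig1 GL pairs were called. Without adjustment 3 had a p under 0.05, DESeq2 called 2 and the likelihood ratio test 1. Such a p was found for 1269 of 14306 genes against 1w pw1 and 818 against 8w pw1. Up to 173 and 51 genes were called over all tests and settings.

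Mean levels after the second injury were lower than at 1w pw1 for all 4 members among Lgr5 GL cells. Sprr1a had a mean of 28.0 ± 43.1 CPM at 1w pw2 and 63.1 ± 96.0 CPM at 1w pw1, and Sprr1b 6.94 ± 6.83 and 19.3 ± 23.9 CPM. Sprr2h had 2 counts after the second injury and 134 after the first, of which 122 were in 1 library. Of 8 pairs 0 were called by the edgeR quasi-likelihood test. There were 2 at an unadjusted p under 0.05, 1 by DESeq2 and 0 by the likelihood ratio test. Such a p was found for 3026 of 18025 genes against 1w pw1 and 691 against 8w pw1. The quasi-likelihood test called 0.266% of all genes against 1w pw1 and 0% against 8w pw1. Up to 980 and 18 genes were called over all tests and settings.

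**Figure D3:**
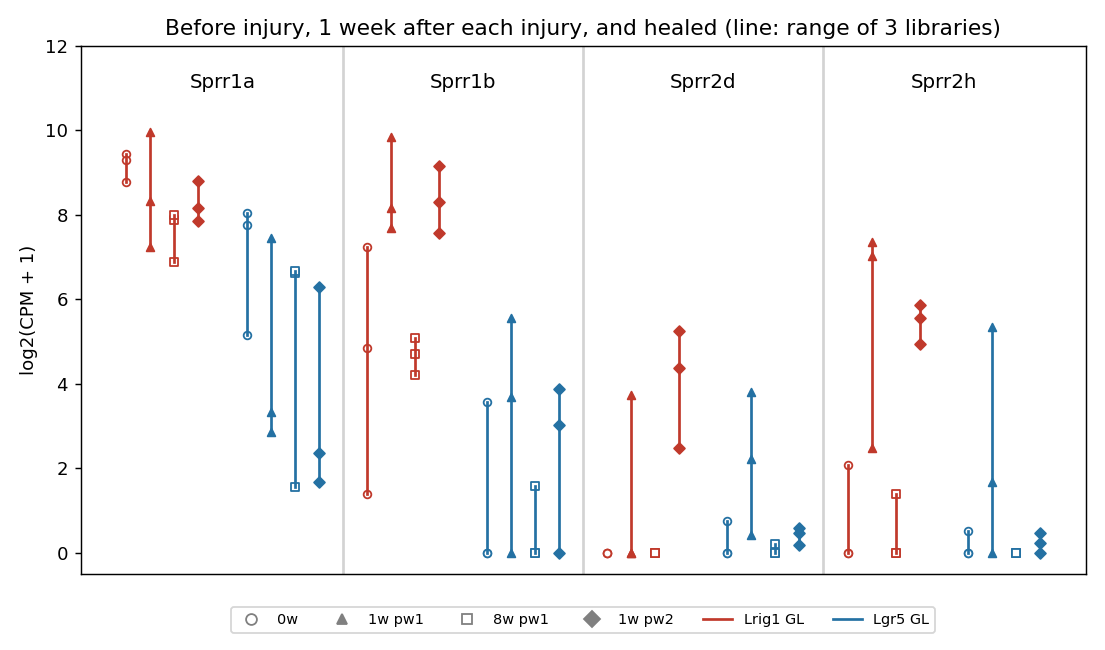
Levels of the members as log2(CPM + 1) before injury, 1w after each injury and in healed skin, with 1 marker per library and a line over the range of the 3 libraries, Lrig1 GL in red and Lgr5 GL in blue. The filled diamonds of 1w pw2 stand apart from the open squares of 8w pw1 for Sprr1b, Sprr2d and Sprr2h in Lrig1 GL cells, and overlap with them for Sprr1a and Sprr1b in Lgr5 GL cells.

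The populations were compared in 1 model of all 36 libraries over 16153 genes, where the population cannot be told apart from its mouse line and sort. Sprr2h was higher in Lrig1 GL than in Lgr5 GL cells at 1w pw2 (edgeR quasi-likelihood test, adjusted p = 0.0298), with 289 against 2 counts over 3 libraries, a pooled ratio of 303 (95% exact interval 83.3 to 2518). The call was lost without Lrig1 GL replicates 1 or 2 of 1w pw2 (adjusted p = 0.0526 and 0.0774) and without any Lgr5 GL library of 1w pw2 (0.124, 0.109 and 0.0919). At the same time point Sprr1b was 5.39 higher on the log2 scale (SE 1.80, adjusted p = 0.0667), with pooled counts at a ratio of 48.7 (39.9 to 60.0), and Sprr1a 3.18 higher (SE 1.31, adjusted p = 0.144), which passed once Lgr5 GL replicate 1 of 1w pw2 was left out (0.0369). The intervals of the pooled ratios leave out the spread between libraries. For Sprr1b at 1w pw2 that was 190 to 572 CPM in Lrig1 GL and 0 to 13.7 CPM in Lgr5 GL libraries.

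At 0w the difference in level was 3.63 (SE 1.72, adjusted p = 0.270) for Sprr1b and 1.42 (SE 1.23, adjusted p = 0.591) for Sprr1a on the log2 scale, and at 1w pw1 it was 4.18 (SE 1.69, adjusted p = 0.151) and 2.58 (SE 1.28, adjusted p = 0.244) by the same edgeR quasi-likelihood test. Sprr2d went the other way at 1w pw1, by -0.83 (SE 2.03, adjusted p = 0.858, same test). It had 13 counts in 1 Lrig1 GL library and 44 counts in the Lgr5 GL libraries. The ratio of pooled levels, scaled to library size, was 0.580, and its exact interval of 0.287 to 1.10 holds 1. The Sprr2d differences at 0w, 2w pw1 and 8w pw1 were also negative (-2.56, -0.34 and -1.48). Sprr2h went the other way at 4w pw1, by -3.16 (SE 1.69, adjusted p = 0.306, same test). It had 17 Lrig1 GL counts against 162 in Lgr5 GL replicate b alone. In all, 1 of 24 pairs of member and time point was called for level, where the share of all genes was 2.86% at 0w, 3.82% at 1w pw1, 1.89% at 2w pw1, 3.56% at 4w pw1, 12.1% at 8w pw1 and 6.72% at 1w pw2.

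The change from 0w was not shown to differ between the populations for any member. The difference of the changes at 1w pw2 was 1.76 (SE 2.27, edgeR quasi-likelihood test, adjusted p = 0.795) for Sprr1b and 1.76 (SE 1.72, adjusted p = 0.718) for Sprr1a on the log2 scale. It was 8.07 (SE 4.47, adjusted p = 0.459) for Sprr2d and 5.65 (SE 3.55, adjusted p = 0.521) for Sprr2h, and both values depend on the prior count, since 0w held from 0 to 5 counts in each population. Of 20 pairs 0 were called. There were 0 at an unadjusted p under 0.05, 5 by DESeq2 and 0 by the likelihood ratio test. The share of all genes called was 0.0495% at 1w pw1, 0% at 2w pw1, 0.0929% at 4w pw1, 1.11% at 8w pw1 and 0.155% at 1w pw2. With these errors, changes that differ several-fold between populations could not be seen.

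Levels of different genes can be set side by side only per length. In CPM per kb of exon, the order in Lrig1 GL cells at 0w was Sprr1a at 729.6 ± 167, Sprr1b at 72.0 ± 95.4 and Sprr2h at 1.42 ± 2.46 (SD, n = 3), with Sprr2d listed at 0. At 1w pw1 it was Sprr1a at 608 ± 560.5, Sprr1b at 562 ± 466, Sprr2h at 132 ± 112 and Sprr2d at 6.04 ± 10.46, and at 1w pw2 Sprr1b at 432 ± 235 and Sprr1a at 397 ± 137 came before Sprr2h at 58.8 ± 18.4 and Sprr2d at 30.0 ± 23.7. At both times Sprr1a and Sprr1b did not differ beyond their spread, whereas at 0w their ranges were apart. In Lgr5 GL cells at 1w pw2 the order was Sprr1a at 34.8 ± 53.5, Sprr1b at 8.36 ± 8.23, Sprr2d at 0.492 ± 0.277 and Sprr2h at 0.241 ± 0.251, and all neighbours overlapped.

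The rest of the family adds the Sprr2a genes. Of the 8 other Sprr genes in either table, the low-count filter kept 6 for Lrig1 GL and 5 for Lgr5 GL. Of these, Sprr2a1 and Sprr2a3 changed across the time course in each population (adjusted p = 0.0373 for both in Lrig1 GL, and 0.0106 and 0.0102 in Lgr5 GL libraries). The Lrig1 GL calls were lost without any of 12 and 13 of the 18 libraries, 1w pw2 replicates 1 to 3 among them (adjusted p of at most 0.0880 and 0.0959), and the Lgr5 GL calls held without each of the 18 libraries. With surrogate variables in the model the Lgr5 GL calls were lost (edgeR quasi-likelihood test, adjusted p = 0.0602 and 0.0640). Surrogate variables and the replicate block each ended the Lrig1 GL calls (same test, adjusted p of at most 0.203 and 0.244). Their exons are nearly the same, with 96.3% of the 50-base stretches of Sprr2a1 and 61.1% of those of Sprr2a3 also found in other Sprr2 genes, so how reads were shared between these copies is uncertain and the pair is best read together. Sprr2a1 stood at 0, 4.87 and 0.640 CPM at 0w in Lrig1 GL cells, at 324, 119 and 102 CPM at 1w pw1, at 21.1, 1.22 and 58.4 CPM at 8w pw1 and at 206, 199.8 and 169.7 CPM at 1w pw2. Sprr2a3 held 0, 4.47 and 0.640 CPM at 0w, 214, 70.1 and 348 CPM at 1w pw1 and 111, 99.5 and 145 CPM at 1w pw2.

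Both Sprr2a1 and Sprr2a3 rose against 0w in Lrig1 GL cells, by 6.44 (SE 1.17) and 6.77 (SE 1.27) on the log2 scale at 1w pw1 and by 6.53 (SE 1.17) and 5.93 (SE 1.24) at 1w pw2 (edgeR quasi-likelihood test, adjusted p between 0.0175 and 0.0301). In Lgr5 GL cells they rose by 6.29 (SE 1.47) and 6.53 (SE 1.53) at 1w pw1 (adjusted p = 0.0434 for each) but stood at 1.17 to 1.83 and 0.648 to 0.833 CPM at 1w pw2. The Lrig1 GL calls were lost without single libraries of 0w (any of the 3), of 1w pw1 (replicate 1, and 3 for Sprr2a3) or of 1w pw2 (replicate 2, and 1 and 3 for Sprr2a3), with adjusted p of at most 0.128. The Lgr5 GL calls were lost without 12 and 10 of 18 libraries, any of 0w and 1w pw2 and replicate 1 of 1w pw1 among them, with adjusted p of at most 0.229. Surrogate variables ended every one of these calls against 0w, and the replicate block all but that of Sprr2a1 at 1w pw2. The Lgr5 GL calls were also lost with no filter and with a filter of 1 CPM in 3 libraries. In these settings the edgeR quasi-likelihood test gave an adjusted p of at most 0.201. At 1w pw2 both genes were higher in Lrig1 GL than in Lgr5 GL cells, by 6.66 (SE 1.39, adjusted p = 0.00388) and 6.95 (SE 1.49, adjusted p = 0.00463), and these calls held without each of the 36 libraries. As with the members, the difference of their changes from 0w at 1w pw2 did not pass (adjusted p = 0.212 and 0.283).

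Of the remaining relatives, Sprr2b went from a mean of 0.406 CPM at 0w to 16.05 CPM at 1w pw1 and 10.3 CPM at 1w pw2 in Lrig1 GL cells, without passing the test against 0w (edgeR quasi-likelihood test, adjusted p = 0.122 and 0.0808), and was higher than in Lgr5 GL cells at 1w pw2 (adjusted p = 0.0336, at most 0.129 without Lrig1 GL replicates 1 or 2 or any Lgr5 GL library of 1w pw2, which ended the call). Sprr4, at the Sprr1a end of the cluster, stood at 17.4 CPM at 0w, 12.5 CPM at 1w pw1 and 11.6 CPM at 1w pw2 in Lrig1 GL cells. Sprr2e and Sprr2g had no Lrig1 GL counts at 0w and 8w pw1. At 1w pw2 their means were 11.2 and 7.08 CPM, for Sprr2e nearly all from 1 library. Over the 6 other Sprr genes tested the median log2 fold change in Lrig1 GL cells was 5.35 at 1w pw1 and 6.23 at 1w pw2, and 3.62 and 4.41 with 0w set at the floor of 3 counts for genes without a count there. It was -0.05 and -0.06 over all genes. Over the 4 members it was 4.47 and 4.03, and 2.82 and 4.02 with the floor. Sprr2e and Sprr2g, each read in 4 Lrig1 GL libraries, passed the filter only through counts after injury. So did the member Sprr2d, read in 7 Lrig1 GL libraries. Sprr2a1 and Sprr2a3 share reads, and the members were picked with these results known. The medians are therefore a description and cannot be weighed against that of all genes.

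**Figure D4:**
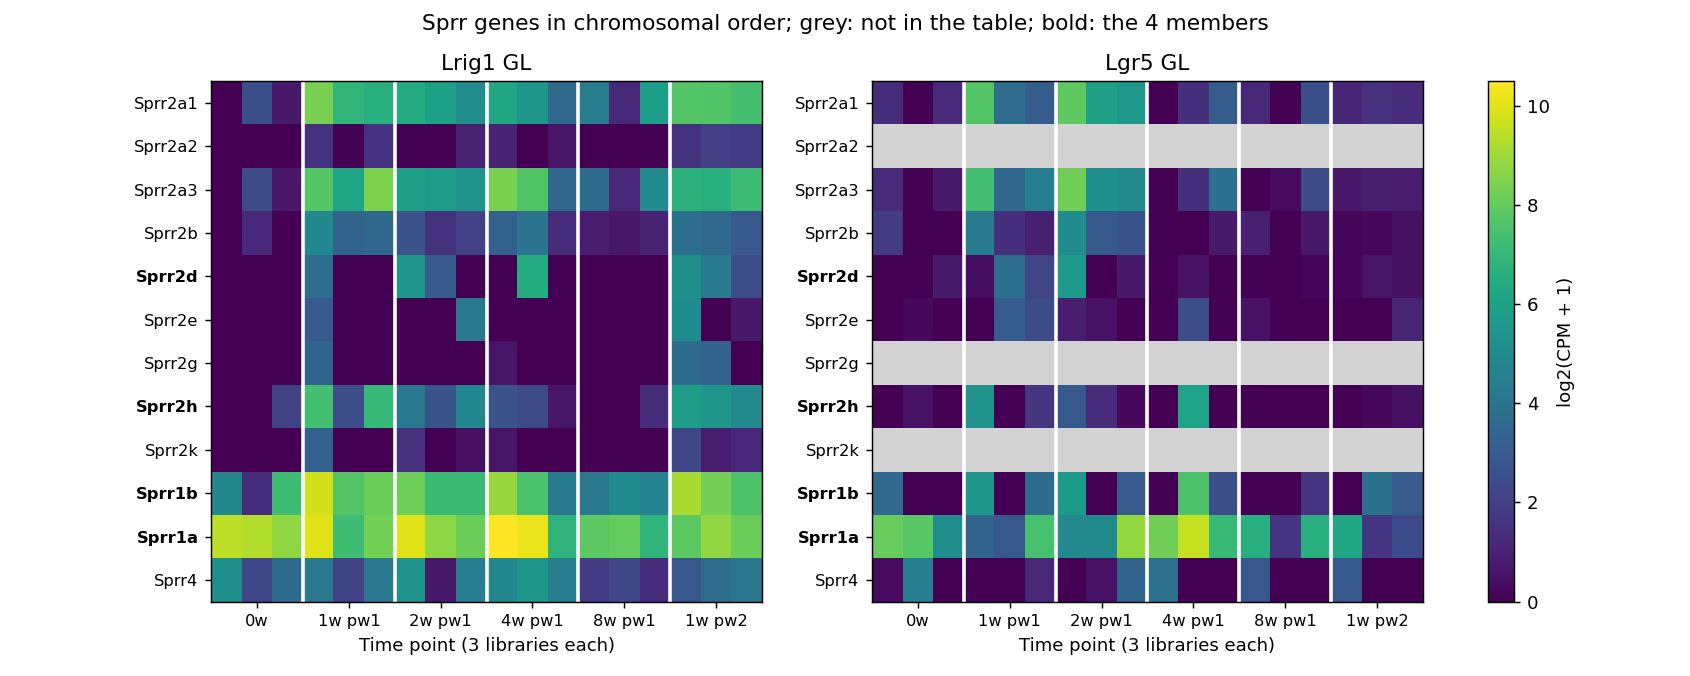
Level of the 12 Sprr genes as log2(CPM + 1), coloured by level, with genes in the order of the chromosome down the y axis, the 4 members in bold, and the 3 libraries of each time point side by side on the x axis. Grey rows are genes outside the Lgr5 GL table. The Sprr2a, Sprr2h and Sprr1b rows are brighter at 1w pw1 and 1w pw2 than at 0w in Lrig1 GL cells, and the Sprr2 rows are dark at 1w pw2 in Lgr5 GL cells.

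**Figure D5:**
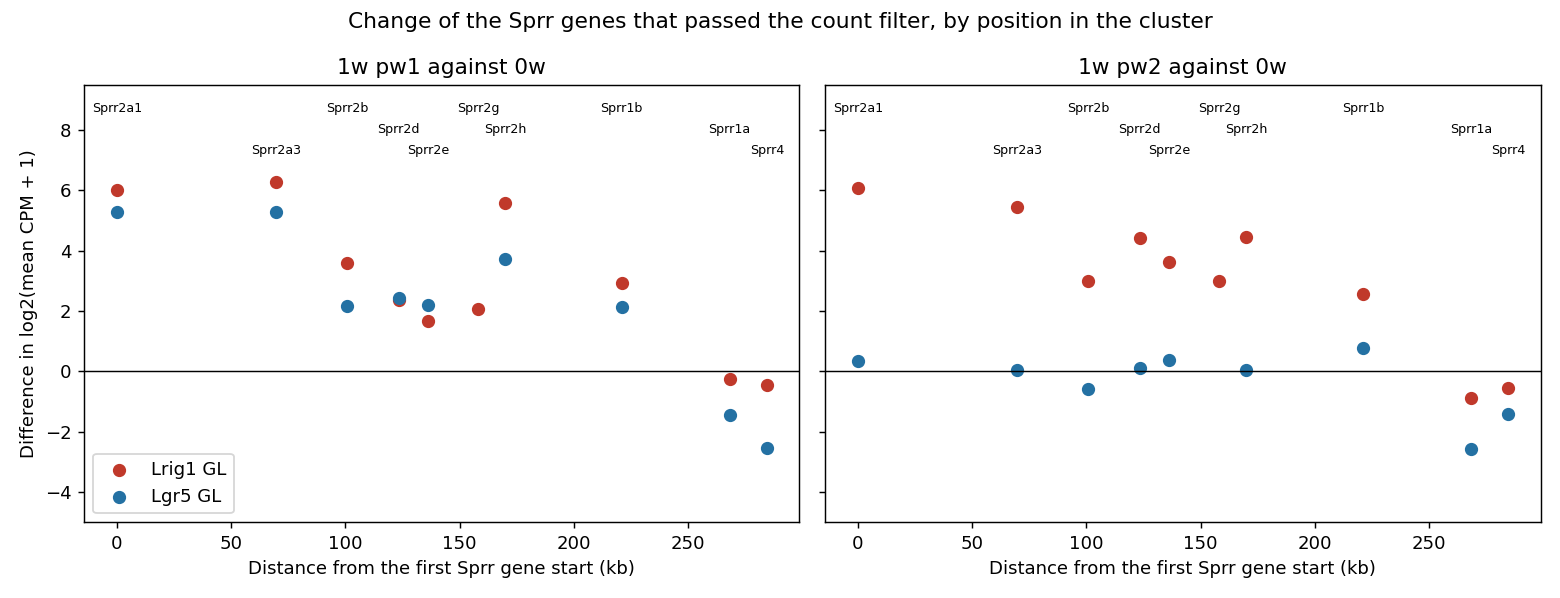
Difference in log2(mean CPM + 1) from 0w against the distance of each Sprr gene from the first Sprr gene start in kb, at 1w pw1 on the left and 1w pw2 on the right, for genes that passed the count filter (Lrig1 GL red, Lgr5 GL blue, means of 3 libraries). Genes up to Sprr1b, at 221.0 kb, lie above 0 in Lrig1 GL cells in both panels, and Sprr1a and Sprr4, at 268.2 and 284.5 kb, lie below 0, while at 1w pw2 the Lgr5 GL points of the Sprr2 genes lie near 0.

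The proteins that SPRR proteins bridge are described next. Among 16 genes of the envelope scaffold and the S100-fused family, 0 were called against 0w at 1w pw1 in Lrig1 GL cells, beside 0.217% of all genes, and 1 at 1w pw2, beside 1.23%. The median log2 fold changes were -1.37 and -0.71, and 0.99 at 4w pw1, where 14 of the 16 had a value above 0 and 0 were called. The 1 gene was Dsp, which encodes the desmosomal anchor desmoplakin and rose from 1996 ± 697 CPM at 0w to 9052 ± 2275 CPM at 8w pw1 and 7533 ± 2220 CPM at 1w pw2 (SD, n = 3, log2 fold change 2.18 and 1.92, edgeR quasi-likelihood test, adjusted p = 0.0160 and 0.0261). Ivl (involucrin) had a mean of 21.5 CPM at 0w, 6.75 CPM at 1w pw1 and 11.3 CPM at 1w pw2, Lor (loricrin) 10.1, 1.73 and 3.79 CPM, and Flg (filaggrin) 21.9, 5.46 and 18.4 CPM in Lrig1 GL cells, none of them called. At 4w pw1 these means were 27.5, 76.1 and 79.9 CPM. Of 21 late cornified envelope genes 3 passed the filter for Lrig1 GL and 0 for Lgr5 GL. Over the 15 of them in the Lrig1 GL table the summed level was 7.31 to 110 CPM at 0w and 0.374 to 0.658 CPM at 1w pw2. At 4w pw1 it was 18.9 and 3.06 CPM in replicates a and c and 2298 CPM in replicate b, the library that also held 90.6 CPM of Sprr2d, and the part of such cells in that value was not tested.

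Among the cross-linking and processing enzymes, 0 of 12 were called 1w after either injury in Lrig1 GL cells, against the same shares of 0.217 and 1.23% of all genes. Tgm1, the membrane-bound transglutaminase of keratinocytes, had means of 31.8, 21.4 and 6.29 CPM at 0w, 1w pw1 and 1w pw2. Klk8, a serine protease of the upper epidermis, changed across the time course (edgeR quasi-likelihood test, adjusted p = 0.0473) with 187 ± 176 CPM at 0w and 13.5 ± 12.03 CPM at 8w pw1. Among Lgr5 GL libraries Sbsn (suprabasin, adjusted p = 0.00826), Ppl (periplakin, adjusted p = 0.0224) and Spink5 (the protease inhibitor LEKTI, adjusted p = 0.0121) changed across the time course by the same test. Ppl fell from 80.9 ± 27.6 CPM at 0w to 12.9 ± 3.19 CPM at 1w pw1.

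Transcription factors of keratinocyte differentiation, the AP-1 subunits among them, were called across the time course for 2 of 14 genes in Lrig1 GL and 1 of 15 in Lgr5 GL libraries, beside 1.63 and 1.13% of all genes. Junb, an AP-1 subunit, stood at 316 ± 37.3 CPM at 0w, 864 ± 385 CPM at 1w pw1, 325 ± 38.4 CPM at 8w pw1 and 444 ± 64.1 CPM at 1w pw2 in Lrig1 GL cells (edgeR quasi-likelihood test across the time course, adjusted p = 0.0485). Maf, a factor of late keratinocyte differentiation, had 159 ± 37.3 CPM at 0w and 937 ± 376 CPM at 8w pw1 (adjusted p = 0.0373). Fosl1, the AP-1 subunit FRA1, had no counts at 0w in Lrig1 GL cells, means of 8.14 CPM at 1w pw1, 0.486 CPM at 8w pw1 and 16.1 CPM at 1w pw2, and no call (adjusted p = 0.239). Klf4, a factor of barrier formation, had 275 ± 159 CPM at 0w and 535 ± 190 CPM at 1w pw2 and was not called (adjusted p = 0.238). Among Lgr5 GL libraries Jun, another AP-1 subunit, went from 185 ± 43.0 CPM at 0w to 891 ± 175 CPM at 1w pw2 (edgeR quasi-likelihood test across the time course, adjusted p = 0.00955), a time point at which Sprr2d and Sprr2h had 5 and 2 counts. A link between these factors and the members was not tested.

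Of 10 NRF2 target genes, those of the oxidative stress response that acts through the antioxidant response element, 0 were called across the time course in Lrig1 GL and 1 was in Lgr5 GL libraries, beside the same shares of 1.63 and 1.13%. That gene was Slc7a11, the cystine transporter, at 8.61 ± 4.02 CPM at 0w and 178 ± 131 CPM at 4w pw1 (edgeR quasi-likelihood test, adjusted p = 0.00201).

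Cell type markers were read in the same libraries because levels of cornified envelope genes can depend on how many suprabasal cells were sorted. The 8 suprabasal markers summed to between 4727 and 32393 CPM in Lrig1 GL and between 387 and 9045 CPM in Lgr5 GL libraries. Of the 8, 0 were called against 0w in either population. Among all genes 0 to 2.82% were called at a time point in Lrig1 GL and 0 to 1.29% in Lgr5 GL libraries. In Lrig1 GL cells the sum was 4727 to 20045 CPM at 0w, 7614 to 9984 CPM at 1w pw1, 7616 to 12363 CPM at 8w pw1 and 11373 to 11836 CPM at 1w pw2, and Krt1 and Krt10 had means of 3261 and 5485 CPM at 0w against 3297 and 6821 CPM at 1w pw2. The Lrig1 GL sum was highest at 4w pw1, with 10735 to 32393 CPM. The Lgr5 GL sum was 387 to 1717 CPM at 0w, 1525 to 9045 CPM at 2w pw1 and 968 to 1268 CPM at 1w pw2, and Krt1 had Lgr5 GL means of 16.1 CPM at 0w and 2527 CPM at 2w pw1. The part of cell composition in the members' differences between populations was not tested.

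Basal and HF markers moved in part with the injuries. Krt15, a keratin of HF stem cells, fell from 5774 ± 1655 CPM at 0w to 597 ± 525 CPM at 1w pw1 and 854 ± 437 CPM at 1w pw2 in Lrig1 GL cells (log2 fold change -3.28 and -2.76, edgeR quasi-likelihood test, adjusted p = 0.0316 and 0.0360). Sprr1b and Sprr2h were high at the same time points, and the part of these cells in their levels was not tested. Of the 7 basal markers, 5 had a log2 fold change above 0 at 1w pw1 in Lrig1 GL cells. Krt14 stood there at 10329 ± 2679 CPM at 0w and 17911 ± 1713 CPM at 1w pw1. Krt15 also changed across the Lgr5 GL time course (edgeR quasi-likelihood test, adjusted p = 0.00201), as did Krt14 (0.00747), Col17a1 (0.0465), Fgf18 (0.00848) and Sox9 (0.0369), and Pparg, the factor of sebocytes, in Lrig1 GL cells (0.0468). From 0w to 1w pw1 in Lgr5 GL cells, Krt15 went from 16189 ± 2473 to 7243 ± 3085 CPM and Krt14 from 4978 ± 337 to 14406 ± 2202 CPM. Of 6 immune markers, Cd207, Cd3e, Lyz2 and Tyrobp had no count in either table. The other two, Cd74 and Ptprc, brought the sum to at most 16.4 CPM in a Lrig1 GL library (1w pw2) and 33.3 CPM in a Lgr5 GL library (2w pw1). Neither was called across the time course (Cd74 in Lrig1 GL, adjusted p = 0.0994, and Ptprc in Lgr5 GL, adjusted p = 0.155). Fibroblast markers summed to at most 89.6 CPM in a Lrig1 GL and 378 CPM in a Lgr5 GL library.

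Across the 18 Lrig1 GL libraries, the genes with the pattern most like Sprr2h, among 10507 compared, were Krt16 (Pearson's r = 0.899 of log2 CPM), Fabp5 (0.869) and Gsta4 (0.856), and those most like Sprr1b were Gsta4 (0.878), Fabp5 (0.878) and Krt16 (0.840). Krt16 is a keratin of injured and hyperproliferative epidermis, Fabp5 an epidermal fatty acid-binding protein and Gsta4 a glutathione transferase. Sprr1a was most like Crabp2 (0.833), Cst6 (0.832) and Klk10 (0.827). For Sprr2d, Mcub (0.680) and Lrrfip2 (0.675) were among the 3 genes most alike. Among the members, Sprr1b and Sprr2h had r = 0.819, and Sprr1a had r = 0.318 with Sprr1b and 0.181 with Sprr2h. These are descriptions over libraries that share time points and depth.

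Over the 18 Lgr5 GL libraries and 11937 genes, Sprr1a was most like AC116527.2 (0.846), Klk7 (0.800) and Tchh (0.786), Sprr1b like Calm4 (0.714), Stfa1 (0.713) and Gls2 (0.708), Sprr2d like Trbc2 (0.787), Serpinb3b (0.766) and Pcna-ps2 (0.717), and Sprr2h like Rnps1 (0.763), Il1f9 (0.728) and Stab1 (0.714). Each of the 3 lower members was at or near 0 in most of these libraries, so that few libraries set these values.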

How the data were processed

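Sorted tdTomato+ cells were profiled by a modified Smart-seq2 protocol with oligo(dT) capture. The authors trimmed the reads with Trim Galore 0.5.0, aligned them to mm10/GRCm38 with HISAT2 2.2.01 and counted them over exons by gene name with featureCounts 1.6.12 on the GENCODE M20 annotation. The authors deposited the counts per gene without normalization, in 1 table per population (20181 and 22587 genes). Kit strandedness and the handling of reads with several matches are not given in the sources used here. Reads without molecular identifiers can be PCR copies, and full-length counts grow with transcript length.

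Each population was fitted apart in R 4.3.3 with edgeR 4.0.16 (filterByExpr with a minimum of 10 counts, TMM factors, prior count of 0.125), as a quasi-likelihood F-test of 5 coefficients against 0w and of single contrasts, with Benjamini-Hochberg adjustment over all genes tested. A call against 0w, across the time course or of a level between populations needed an adjusted p below 0.05 with a change of more than 1 on the log2 scale, and other contrasts the adjusted p alone. The study's methods add surrogate variables, which were kept as an alternative. The populations were joined over 18865 shared genes, of which 16153 were tested. Ratios of pooled counts carry 95% exact binomial intervals, which leave out the spread between libraries. The steps were tested on simulated data.

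The members and gene lists were chosen with earlier results of these data known. The named genes were the 4 members, every list gene called across the time course in either population, and Ivl, Lor, Flg, Tgm1, Klf4 and Fosl1. Dsp and Krt15 come in by the same rule, and the 3 genes most alike per member and population had the highest Pearson's r of log2 CPM (prior count of 2) among genes with a mean of at least 10 counts, leaving out symbols that start with Gm or end with Rik. 1 gene that this rule names is not reported here. Sprr2b, Sprr2e, Sprr2g and Sprr4 were named as other Sprr genes that passed the filter. Libraries with the same number did not deviate together (mean r across genes of -0.00644 for Lrig1 GL, 0.00393 for Lgr5 GL), and the samples were not treated as paired. For 15 libraries the label is known, and for 21 libraries the group. Alternatives were other size factors, TMM without Gm12415, DESeq2 1.42.0, the likelihood ratio test, no filter, a filter of 1 CPM in 3 libraries, a prior count of 2, surrogate variables from sva 3.50.0, a replicate block and leaving out each library, the last of these for the joined model chosen after seeing the data. Promoter sequences are from RefSeq (GRCm38.p6), which held all 4 members.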

Additional observations from a re-analysis of the deposited data

How the results depend on the processing

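No filter, the 1 CPM filter, the prior count of 2, the other size factors and TMM without Gm12415 changed no count of member calls by over 1.5 times and no sign. The cause of each change below was not tested. In Lrig1 GL cells the count of members called across the time course (1 with the quasi-likelihood test) was 2 with DESeq2, 3 with the likelihood ratio test, 2 with surrogate variables and 0 with the replicate block, and 0 to 1 with a library left out. The count over all genes ran from 12 to 1999 by setting and from 47 to 477 with a library left out. The pairs called against 0w (0 of 20) were 7, 2 and 3 with DESeq2, the likelihood ratio test and surrogate variables, and 0 to 2 with a library left out, and those at 1w pw2 against 1w pw1 and 8w pw1 (0 of 8) were 2 with DESeq2 and 1 with the likelihood ratio test. With surrogate variables Sprr1b passed at 1w pw1 and 1w pw2 (adjusted p = 0.0210 and 0.0102).

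In Lgr5 GL cells the members called across the time course (0) were 1 with DESeq2, 2 with the likelihood ratio test and 0 to 1 with a library left out, and DESeq2 called 1 pair against 0w and 1 at 1w pw2 against 8w pw1, both on Sprr2h at 0 to 2 counts. Between populations DESeq2 called 5 changes from 0w (0 of 20 otherwise) and 4 levels (1 of 24 otherwise), and the levels called were 0 to 1 with a library left out. These 4 levels were at 0w, 8w pw1 and 1w pw2, where up to 1065, 2949 and 1861 genes were called over all settings.

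Surrogate variables turned the sign of uncalled log2 fold changes, in Lrig1 GL cells to 0.56 at 1w pw1, -0.27 at 4w pw1, 0.0166 at 8w and 0.23 at 1w pw2 for Sprr1a, to 2.34 for Sprr1b at 8w pw1, and to 0.10 and 1.29 for Sprr1b and Sprr2h at 1w pw2 against 1w pw1. In Lgr5 GL cells they gave -1.46 for Sprr1b at 1w pw1 and 0.77 and 3.33 for Sprr1a and Sprr1b at 1w pw2 against 1w pw1. With 1 library left out, uncalled values also changed sign. In Lrig1 GL cells Sprr1b ran from -1.82 to 0.80 at 8w pw1, Sprr1a from -1.33 to 0.16 at 1w pw1, and at 1w pw2 against 1w pw1 Sprr1a from -1.06 to 0.41 and Sprr1b from -0.93 to 0.52. In Lgr5 GL cells Sprr1b ran from -6.87 to 4.76 at 8w pw1 and from -0.18 to 7.82 at 1w pw2, and at 1w pw2 against 1w pw1 Sprr1b from -2.56 to 0.0920 and Sprr1a from -4.42 to 1.89. The difference of changes of Sprr1b at 1w pw2 ran from -4.84 to 3.77, and the Lrig1 GL minus Lgr5 GL level of Sprr2d at 1w pw1 from -7.19 to 0.66. The replicate block changed no other call on the members than that of Sprr2h (adjusted p = 0.0568).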
